A study of Mus musculus with 6 samples.

Results

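The cadherins with a numbered Cdh symbol and the non-clustered protocadherins, 35 genes in all, were followed through oocytes that lost the E3 ligase core of Polycomb repressive complex 1 (PRC1). The members were chosen by symbol: rows of the 24421-gene count table whose Entrez identifier maps to a protein-coding mouse gene named Cdh or Pcdh followed by a number, which gave 23 Cdh genes and 12 Pcdh genes. No measured value enters that rule, but the family was picked out with the results of the same comparison known, so how many members moved is given as a description and supports nothing beyond itself. The 6 libraries are RNA-seq of fully grown oocytes at the germinal vesicle stage, the prophase arrest before meiosis resumes, each from 15 oocytes of 1 female of about 3 months on a mixed FVB, 129/Sv and C57BL/6J background. Both genotypes were Ring1 -/- and carried Rnf2 f/f. The 3 mice called DKO also carried Zp3-cre, a Cre transgene driven by the promoter of the zona pellucida gene Zp3 and active in growing oocytes, and the 3 mice called SKO did not. The contrast is therefore the oocyte deletion of Rnf2 on a background without Ring1. The deletion and the mere presence of Cre cannot be told apart, since no library has one without the other.

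Cadherins are calcium-dependent adhesion proteins. Classical cadherins bind a like cadherin on the next cell through their outermost repeat and hold the actin cytoskeleton through beta-catenin, p120-catenin and alpha-catenin. Type I and type II classical cadherins differ in how that outermost repeat pairs, and many type II genes are best known from subsets of neurons, glia and mesenchyme. Non-clustered protocadherins, grouped as delta-1 and delta-2 by their cytoplasmic motifs, adhere more weakly, do not use the catenins in the classical way and act mostly in the developing brain. In the ovary E-cadherin and N-cadherin lie where the oocyte meets its granulosa cells. PRC1 places ubiquitin on histone H2A at silent developmental genes.

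The deleted gene Rnf2 stood at 190 ± 11.8 CPM in SKO against 36.6 ± 17.5 CPM in DKO (SD, n = 3 mice), where CPM is the usual depth-scaled count, here on library sizes adjusted by TMM. Ring1 had at most 13 counts in any library and was not tested. The libraries held 15521975 to 26652745 counts, and 3 counts, the limit that a count of 0 allows, came to 0.116 to 0.171 CPM over the 6 libraries. Markers of the oocyte were abundant in both genotypes, with a summed level of 11272 to 14862 CPM in DKO and 19758 to 20805 CPM in SKO, led by Gdf9, Bmp15 and Nlrp5. Of these markers 5 of 10 were called lower, against 7.41% of all tested genes. The calls of Zp1, Zp2 and Zp3 were lost in 6, 5 and 3 of 12 alternatives, and those of Bmp15 and Ooep were kept in all. Of 13 granulosa and cumulus markers, 11 were tested. Of these 6 were called higher and 1 lower, against 17.3% and 7.41% of all tested genes, and Amh, Inha, Kitl and Hsd17b1 were not called. The 13 markers summed to 272 to 297 CPM in DKO against 113 to 140 CPM in SKO. The calls of Inhba, Gja1, Has2, Nr5a2 and Cyp19a1 were lost in at least 1 alternative each, and Gja1 passed the filter on low counts only with DKO libraries. None of the 13 was at 0, and by the mean of both genotypes the most abundant tested were Nr5a2 (117 and 79.2 CPM in DKO and SKO), Ptgs2 (87.1 and 3.8 CPM) and Cyp19a1 (17 and 30 CPM, called lower). The largest log2 fold change of the list was that of Fshr, at 30.7 and 0.506 CPM (5.91, adjusted p = 1.35e-06, edgeR). Markers of theca, stroma and endothelium summed to 112 to 128 CPM in DKO and 118 to 158 CPM in SKO, led by Pecam1, Tek and Kdr. Of this list 8 of 12 were tested, Pecam1 was called lower, and Kdr, Pdgfra and Col1a1 were called higher, with log2 fold changes of 1.65, 2.69 and 4.15. The value of Col1a1 rests on 5 SKO counts, and this gene passed the filter on low counts only with DKO libraries. Blood and immune markers summed to 5.13 to 9.06 CPM in DKO and 1.31 to 3.54 CPM in SKO, with Cd68 among the tested and the globin genes Hbb-bs and Hba-a1 at 0 throughout. In pooled oocytes, more cells of another type and more RNA per oocyte cannot be told apart, and the part of these markers in the results on the cadherins was not tested.

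Most cadherins that could be tested were higher in oocytes without Rnf2, while the cadherin that oocytes hold most of, E-cadherin, was not called. Of the 35 members, 23 passed the filter on low counts, and of these 14 were called higher in DKO and 2 lower (edgeR quasi-likelihood test, Benjamini-Hochberg adjusted p under 0.05 over all 14845 genes tested). Over all tested genes 17.3% were called higher and 7.41% lower. Every DKO library lay above every SKO library for 17 of the 23 members and below for 2, against 24.7% and 19.6% of all tested genes. The median log2 fold change, DKO over SKO, was 1.44 over the 23 members and 0.04 over all tested genes. These figures do not cover the family evenly: 6 of the 23, namely Cdh6, Cdh7, Cdh11, Cdh20, Pcdh8 and Pcdh17, would fail the filter on SKO libraries alone and were kept through their DKO counts. Among the 17 members that pass on SKO libraries alone, 9 were called higher, 2 lower and 6 not called, with a median of 1.07. The share of calls over the 12731 tested genes that pass in the same way was not computed, so this count has no like background.

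**Figure D1:**
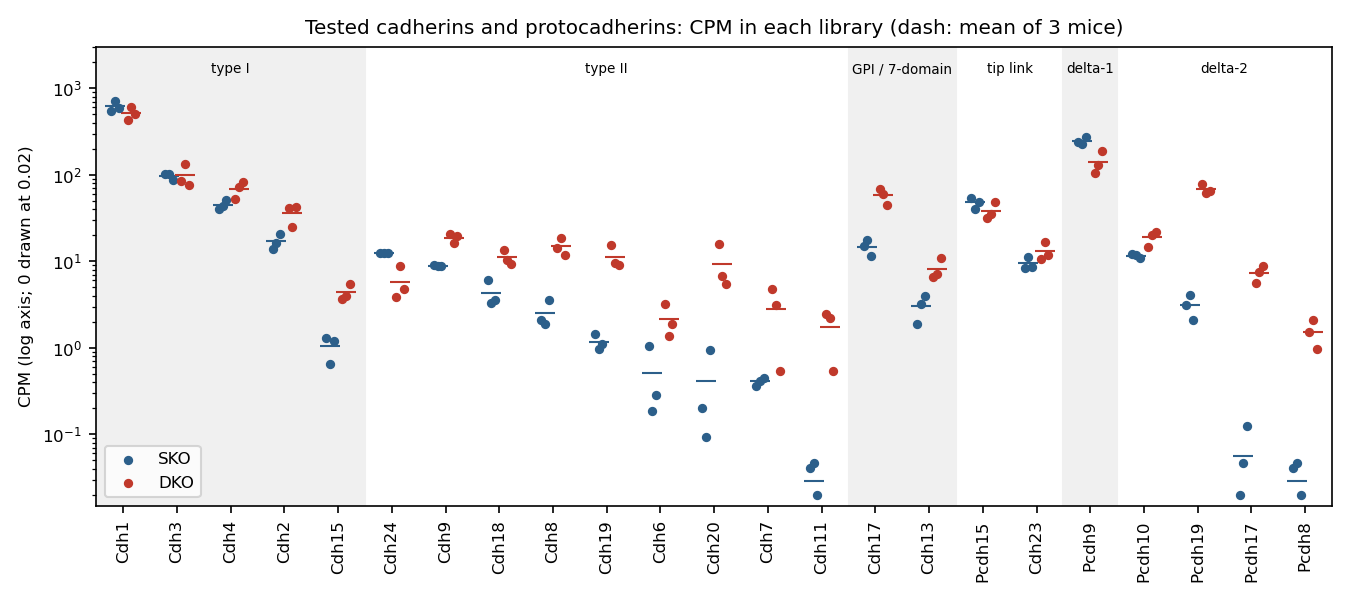
CPM on a log axis in each of the 3 SKO and 3 DKO libraries for the 23 tested members, ordered by class and by level in SKO; dashes are group means and values of 0 are drawn at 0.02. Cdh1, Cdh3 and Pcdh15 overlap between the genotypes, while Pcdh19, Pcdh17 and Pcdh8 sit far apart.

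The delta-2 protocadherins included the largest log2 fold change of the family. Of 5 members 4 were tested and 3 were called higher, and their summed level per length went from 1.29 ± 0.146 to 9.28 ± 0.401 CPM per kilobase (SD, n = 3). Over all tested genes the share called higher was 17.3%, and Pcdh8 and Pcdh17 passed the filter on low counts only with DKO libraries. Pcdh19, an X-linked gene known from a female-limited epilepsy, measured 77.7, 61.5 and 65.0 CPM in the 3 DKO mice and 3.14, 4.10 and 2.10 CPM in the 3 SKO mice. The groups were far apart and each was tight. The rise was 21.9-fold (log2 fold change 4.45, SE 0.29, adjusted p = 6.03e-06, edgeR), the smallest adjusted p of the family, from the gene at chromosome X, 133582860 to 133689044 (GRCm38, RefSeq annotation). Pcdh17, known from corticostriatal synapses, had 99, 159 and 227 counts in DKO and 0, 1 and 3 in SKO, which is 5.64, 7.47 and 8.81 CPM against at most 0.123 CPM. Its log2 fold change of 6.88 (SE 0.69, adjusted p = 9.08e-05) was the largest of the tested members and rests on 4 SKO counts: it was 8.06 without SKO replicate 3 and 6.30 without SKO replicate 1. Pcdh8, the paraxial protocadherin of the early mesoderm, had 27, 45 and 25 counts in DKO and 1, 1 and 0 in SKO, a ratio of 53.2 with an exact 95% interval of 14.3 to 446 that covers counting error only (adjusted p = 0.00162). Pcdh10 was already expressed in SKO at 12, 11.7 and 10.8 CPM and measured 14.6, 20.3 and 21.7 CPM in DKO. Its groups did not overlap, but it was not called (log2 fold change 0.71, SE 0.25, adjusted p = 0.0625, and 0.0266 to 0.189 over the alternatives). Pcdh18 was not tested, with 5 counts summed over DKO and 0 over SKO.

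The start regions of these 4 genes are shown because 3 of them were low in SKO and rose together, while Pcdh10 was already expressed and was not called. Each line gives the bases upstream of the outermost annotated start, on the strand of the gene, 5′ to 3′, from the RefSeq promoter table (GRCm38.p6), with every CpG in capitals.
Pcdh17, chr14:84443313-84443562, plus strand: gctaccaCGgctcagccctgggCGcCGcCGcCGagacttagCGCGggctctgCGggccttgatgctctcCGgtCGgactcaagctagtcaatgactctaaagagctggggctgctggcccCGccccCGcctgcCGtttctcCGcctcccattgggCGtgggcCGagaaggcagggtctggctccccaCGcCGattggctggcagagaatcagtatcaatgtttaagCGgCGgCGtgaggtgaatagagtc
Pcdh8, chr14:79771313-79771562, minus strand: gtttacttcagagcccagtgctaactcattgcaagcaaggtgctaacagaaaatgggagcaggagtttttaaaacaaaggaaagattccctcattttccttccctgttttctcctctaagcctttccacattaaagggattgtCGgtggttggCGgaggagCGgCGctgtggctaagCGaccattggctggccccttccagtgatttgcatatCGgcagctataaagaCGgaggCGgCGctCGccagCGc
Pcdh19, chrX:133689045-133689243, minus strand: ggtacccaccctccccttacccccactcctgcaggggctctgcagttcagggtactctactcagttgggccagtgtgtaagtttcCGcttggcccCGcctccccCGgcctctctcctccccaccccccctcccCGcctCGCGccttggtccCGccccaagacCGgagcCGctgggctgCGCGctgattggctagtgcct
Pcdh10, chr3:45378148-45378397, plus strand: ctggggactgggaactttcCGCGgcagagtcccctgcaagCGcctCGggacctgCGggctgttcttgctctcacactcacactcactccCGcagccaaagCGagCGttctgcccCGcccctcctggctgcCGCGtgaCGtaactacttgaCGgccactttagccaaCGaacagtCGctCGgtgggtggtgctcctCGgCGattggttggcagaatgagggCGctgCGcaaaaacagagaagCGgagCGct
The printed stretches of Pcdh17, Pcdh10 and Pcdh8 hold 21, 22 and 11 CpG in 250 bases, and that of Pcdh19 holds 11 in 199 bases. In the full window of 300 bases, 250 before the start and 50 after it, the observed-over-expected CpG ratio was 0.822 for Pcdh17, 0.824 for Pcdh10, 0.641 for Pcdh8 and 0.54 for Pcdh19. Pcdh17, the largest fold change, and Pcdh10, which was not called, thus have start regions of the same CpG ratio to 2 decimals.

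Such a window was given for 22 of the 35 members, and not for Cdh1, Cdh2, Cdh3, Cdh4, Cdh5, Cdh11, Cdh13, Cdh16, Cdh17, Cdh19, Pcdh1, Pcdh11x and Pcdh12. Some windows lie at a start inside the annotated gene. That of Cdh18 begins at 23036213 and the gene at 22548898, and that of Pcdh15 begins at 73821617 and the gene at 73096277. Which start these oocytes used was not analysed. Taking the highest window where a gene has several, 10 of 22 members (45.5%) reached a CpG ratio of 0.6, against 38.4% of all 27025 genes with a window. At a ratio of 0.75 it was 5 of 22 (22.7%) against 27.2%. Of the tested members alone, 8 of 15 reached 0.6 and 3 of 15 reached 0.75, against 70% and 51.9% of the 11761 tested genes with a window. Among members called higher with a window, 5 of 9 reached 0.6 and 2 of 9 reached 0.75. Over all tested genes called higher with a window, the shares were 64.4% and 43.4%. Of these members Cdh20 had the highest ratio at 0.935, followed by Pcdh17, Cdh8, Cdh7 and Pcdh8. Cdh15, Cdh9, Cdh18 and Pcdh19 were called higher with ratios of 0.29 to 0.54. Both members called lower, Cdh24 at 0.745 and Pcdh9 at 0.664, were above 0.6, which 67.0% of all tested genes called lower with a window reached. Ratios on both sides of 0.6 occurred among members called higher and among those not called.

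**Figure D2:**
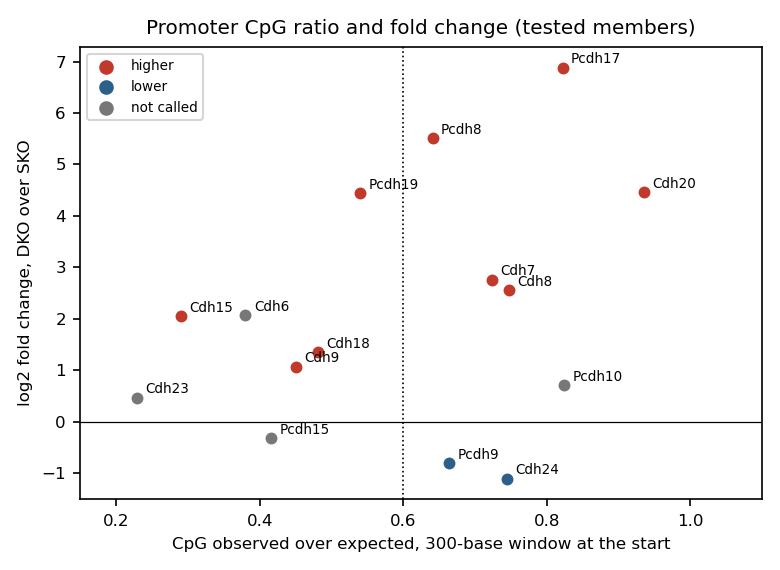
Observed-over-expected CpG ratio of the 300-base window (the highest window of a gene) against the log2 fold change, DKO over SKO, for the 15 tested members with a window. Some windows lie at a start inside the annotated gene. The dotted line marks a ratio of 0.6. Pcdh17 and Pcdh10 share a ratio near 0.82 and differ in fold change, and Pcdh9 and Cdh24 fall to the right of the line with negative changes.

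Type II classical cadherins formed the largest class, with 13 members, and also moved mostly upward. Of 9 tested, 7 were called higher and Cdh24 lower, and Cdh6 was not called, where all tested genes gave 17.3% higher and 7.41% lower. Cdh6, Cdh7, Cdh11 and Cdh20 passed the filter on low counts only with DKO libraries. The summed level per length of the class was 10.03 ± 0.609 CPM per kilobase in SKO and 21.8 ± 3.93 in DKO. Cdh8, a cadherin of forebrain and thalamic neurons, measured 14.1, 18.8 and 11.8 CPM in DKO and 2.09, 1.89 and 3.57 CPM in SKO, 5.9-fold higher (log2 fold change 2.56, SE 0.36, adjusted p = 0.000716). Cdh11, the cadherin of osteoblasts and mesenchyme and the next member along chromosome 8 with no protein-coding gene between, had 43, 47 and 14 DKO counts and 1, 1 and 0 SKO counts, a ratio of 57.1 (exact 95% interval 15.4 to 477, adjusted p = 0.00266). Cdh9, known from the synapses of hippocampal mossy fibres, was the steadiest of the class, at 20.6, 16.1 and 19.3 CPM in DKO and 9.02, 8.71 and 8.92 CPM in SKO. It was 2.1-fold higher (log2 fold change 1.07, SE 0.24, adjusted p = 0.00945). Cdh18, a cadherin of the central nervous system, went from 6.04, 3.27 and 3.57 CPM to 13.5, 10.3 and 9.4 CPM (log2 fold change 1.36, SE 0.35, adjusted p = 0.0168). Its adjusted p was 0.0523 with DKO replicate 1 left out, and 0.0767 or 0.0704 with SKO replicate 2 or 3 left out.

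All 3 members on chromosome 1 were called higher, as were 17.3% of all tested genes. Of these members, Cdh7 and Cdh20 passed the filter on low counts only with DKO libraries. Cdh19, a marker of Schwann cell precursors, measured 15.4, 9.44 and 9.05 CPM in DKO and 1.45, 0.967 and 1.11 CPM in SKO (log2 fold change 3.26, SE 0.39, adjusted p = 0.00024). Cdh7, a cadherin of the neural tube and neural crest, is its neighbour, with 742729 bases and no protein-coding gene between them, and measured 4.84, 3.10 and 0.544 CPM in DKO and 0.362, 0.415 and 0.452 CPM in SKO. DKO replicate 3 lay barely above the SKO libraries, and the log2 fold change of 2.76 (SE 0.76, adjusted p = 0.024) was called with all 6 libraries and without DKO replicate 3. It missed the threshold without any of the other 5, at an adjusted p of 0.107 without DKO replicate 1 (log2 fold change 2.13), 0.0634 without DKO replicate 2, and 0.0744, 0.0691 and 0.0662 without SKO replicates 1, 2 and 3. Cdh20, also of the neural tube, lies 4986755 bases before Cdh7 with 21 protein-coding genes in that stretch. It measured 15.7, 6.81 and 5.40 CPM in DKO and 0.201, 0.0921 and 0.945 CPM in SKO, so that 1 library in each group was well above the other two. Its log2 fold change of 4.46 (SE 0.76, adjusted p = 0.00217) was 3.85 without DKO replicate 1 and 5.90 without SKO replicate 3.

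The 5 members on chromosome 15 follow each other with no protein-coding gene between any neighbours. Every DKO library lay above every SKO library for Cdh6, Cdh9, Cdh12 and Cdh18, as for 24.7% of all tested genes. Cdh10 had its few counts in SKO. Cdh9 and Cdh18 were called higher. Cdh6, first described in kidney, measured 3.25, 1.36 and 1.90 CPM in DKO and 1.05, 0.184 and 0.288 CPM in SKO and was not called (log2 fold change 2.07, SE 0.72, adjusted p = 0.0606). It passed the threshold without SKO replicate 1 (log2 fold change 3.14, adjusted p = 0.0224), with a replicate block (0.022), by DESeq2 (0.0302) and without the filter on low counts (0.0488). Cdh12 was below the filter, with 14, 8 and 16 DKO counts and 1, 2 and 0 SKO counts, a ratio of 13.9 (exact 95% interval 4.41 to 70.4). Cdh10 had 2, 2 and 1 counts in SKO and 0 in every DKO library.

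Cdh24 was the type II member called lower. It measured 3.87, 8.83 and 4.78 CPM in DKO and 12.5, 12.6 and 12.5 CPM in SKO, 2.15-fold lower (log2 fold change -1.10, SE 0.35, adjusted p = 0.0416). The groups did not overlap, but this call was the one nearest the threshold. It was lost without DKO replicate 1 (adjusted p = 0.0972), DKO replicate 3 (0.0805), SKO replicate 1 (0.0975), SKO replicate 2 (0.104) or SKO replicate 3 (0.0997), and with libraries scaled by their totals (0.0837). Cdh5, the cadherin of endothelial junctions, had 3 counts in DKO replicate 2 and 0 in every other library. Cdh22 had 3 counts in SKO replicate 1 and 0 in the rest.

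**Figure D3:**
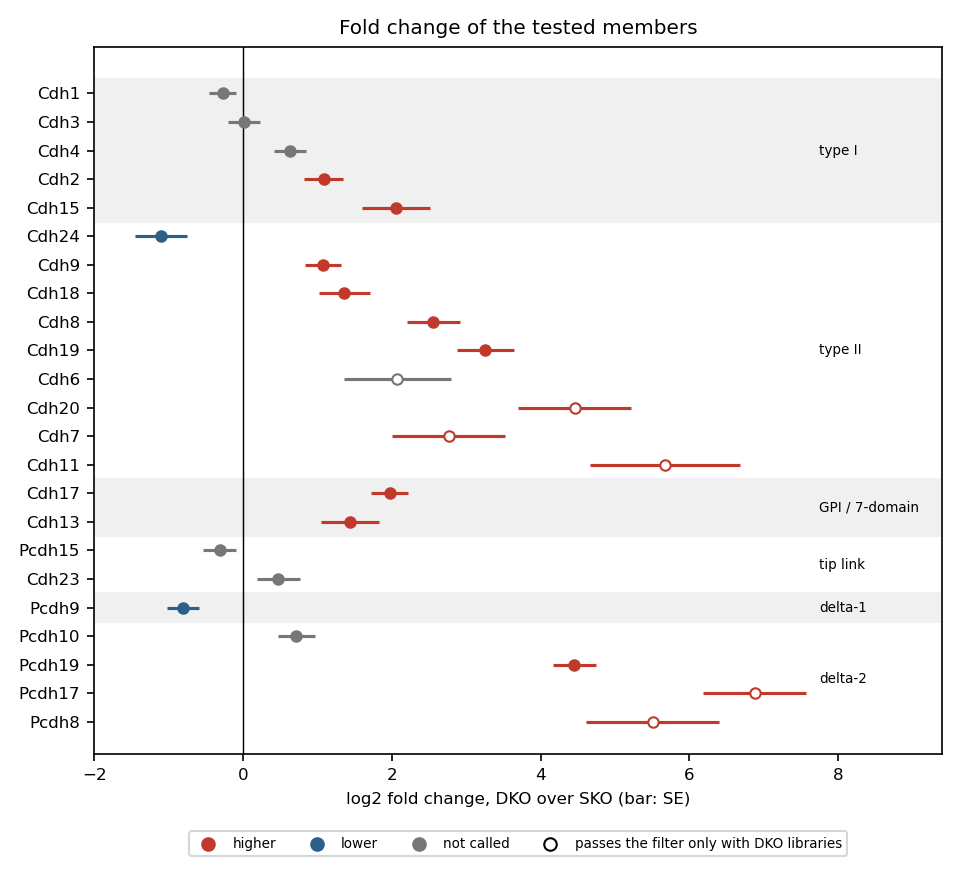
Log2 fold change, DKO over SKO, with its standard error for each tested member, by class; open circles pass the filter on low counts only with DKO libraries. The changes run from -1.10 for Cdh24 to 6.88 for Pcdh17, and the 3 largest, Pcdh17, Cdh11 and Pcdh8, are open circles.

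Type I classical cadherins held most of the family's RNA, and the most abundant of them were not called. Cdh1, E-cadherin of epithelia and of the oocyte surface (chromosome 8, 106603350 to 106670247), measured 429, 607 and 504 CPM in DKO and 551, 719 and 594 CPM in SKO. The groups overlapped, and the log2 fold change of -0.28 (SE 0.18) was not called (adjusted p = 0.298). Cdh3, P-cadherin, ends 46438 bases before the start of Cdh1 with no protein-coding gene between, and measured 84.7, 133 and 76.7 CPM in DKO and 101, 103 and 88.0 CPM in SKO (log2 fold change 0.01, SE 0.22, adjusted p = 0.979, and -0.27 to 0.18 over the alternatives). Cdh4, R-cadherin of the retina and brain, measured 52.2, 73.0 and 82.7 CPM in DKO and 39.8, 43.3 and 51.4 CPM in SKO. Its groups stood just apart without a call (log2 fold change 0.63, SE 0.21, adjusted p = 0.0558), and it was called in 5 of 12 alternatives. Its adjusted p was 0.0152 without DKO replicate 1, 0.0161 with library totals, 0.0389 by DESeq2, 0.046 with the stricter filter and 0.0403 with a replicate block.

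N-cadherin and M-cadherin were the type I members called higher. Cdh2, N-cadherin of neurons, heart and granulosa cells (chromosome 18, 16588877 to 16809246), measured 40.9, 25.0 and 42.1 CPM in DKO and 14, 16.2 and 20.8 CPM in SKO, 2.12-fold higher (log2 fold change 1.08, SE 0.27, adjusted p = 0.0147). The call was lost without SKO replicate 1 (adjusted p = 0.0705) or SKO replicate 2 (0.0609), and in the same libraries the summed granulosa markers were 272 to 297 CPM in DKO against 113 to 140 CPM in SKO. Their part in the Cdh2 result was not tested. Cdh15, M-cadherin of muscle, measured 3.65, 3.95 and 5.48 CPM in DKO and 1.29, 0.645 and 1.19 CPM in SKO (log2 fold change 2.06, SE 0.46, adjusted p = 0.00876). Per kilobase of gene length, Cdh1 was 42.9, 48.5 and 31.3 times as abundant as Cdh2 in SKO and 11.5, 26.6 and 13.1 times in DKO, so the 2 sets of ratios did not overlap.

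Cdh17 and Cdh13, which lack the catenin-binding tail of classical cadherins, were both called higher. Cdh17, the liver-intestine cadherin with a short cytoplasmic tail, measured 69.2, 59.8 and 44.4 CPM in DKO and 15.0, 17.7 and 11.5 CPM in SKO, 3.92-fold higher (log2 fold change 1.97, SE 0.25, adjusted p = 0.000372). Cdh13, T-cadherin, which is held in the membrane by a lipid anchor and binds adiponectin, measured 6.66, 7.05 and 10.9 CPM in DKO and 1.89, 3.22 and 3.99 CPM in SKO (log2 fold change 1.44, SE 0.39, adjusted p = 0.0236). Its call was lost without DKO replicate 3 (adjusted p = 0.0585), SKO replicate 1 (0.0899) or SKO replicate 2 (0.068). Cdh26 had 24 counts over DKO and 2 over SKO, a ratio of 13.2 (exact 95% interval 3.27 to 115), and the kidney cadherin Cdh16 had 0 counts in all 6 libraries. Neither was tested.

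The tip link pair did not pass the test. Cdh23 and Pcdh15 join end to end into the filament that opens transduction channels in hair cells. Cdh23 measured 10.5, 16.9 and 11.8 CPM in DKO and 8.45, 11.2 and 8.59 CPM in SKO (log2 fold change 0.47, SE 0.29, adjusted p = 0.265). Pcdh15 measured 31.9, 35.1 and 48.3 CPM in DKO and 54.3, 40.6 and 48.7 CPM in SKO (log2 fold change -0.32, SE 0.22, adjusted p = 0.327). Both pairs of groups overlapped.

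Pcdh9 was the one delta-1 protocadherin that was tested, and it was called lower. This brain protocadherin, at chromosome 14, 93013700 to 93892834, measured 105, 131 and 186 CPM in DKO and 239, 227 and 273 CPM in SKO. The groups did not overlap and the DKO libraries were spread widely. It was 1.75-fold lower (log2 fold change -0.80, SE 0.21, adjusted p = 0.0214), a call that was lost without DKO replicate 2 (adjusted p = 0.0624), SKO replicate 1 (0.0563) or SKO replicate 3 (0.0851). The other 3 members of the subgroup were below the filter: Pcdh7 had 19, 25 and 9 DKO counts and 1, 6 and 1 SKO counts, Pcdh1 had 18 counts over DKO and 48 over SKO, 40 of them in replicate 3, and Pcdh11x had 8 DKO counts, all in replicate 1, and 1 SKO count. Of the members outside the delta groups, Pcdh12, first found in endothelium, had 19, 22 and 8 DKO counts and 0 SKO counts, at least 17.9-fold higher against 3 counts over the SKO group, and Pcdh20 had 0 counts in all 6 libraries.

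Summed over all 35 members, the level was 230 ± 24.5 CPM per kilobase in DKO and 233 ± 18.1 in SKO (SD, n = 3), with overlapping ranges of 207 to 256 and 216 to 252. Cdh1 held 57.5%, 64.3% and 58.3% of this sum in the SKO libraries and 46.7%, 53.5% and 49.9% in the DKO libraries. The 14 members called higher held 6.04%, 5.14% and 5.78% in SKO and 28.1%, 17.7% and 19.8% in DKO, a difference that follows from how they were chosen. In order of level per kilobase, SKO oocytes had Cdh1 (140 ± 19.7), Pcdh9 (39.5 ± 3.86), Cdh3 (24.1 ± 2.02) and Cdh4 (6.66 ± 0.888) ahead of the rest. DKO oocytes had Cdh1 (116 ± 20.2), Cdh3 (24.3 ± 7.53), Pcdh9 (22.6 ± 6.63), Cdh17 (12.9 ± 2.8) and Cdh4 (10.3 ± 2.32), where Cdh3 and Pcdh9, and Cdh17 and Cdh4, differ by less than their spread. Pcdh19 went from the rank of 16 in SKO to 7 in DKO, and Cdh24 from 5 to 14. Among the 14 members called higher, DKO replicate 1 was the highest of the 3 DKO libraries for 8 and DKO replicate 3 the lowest for 8.

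**Figure D4:**
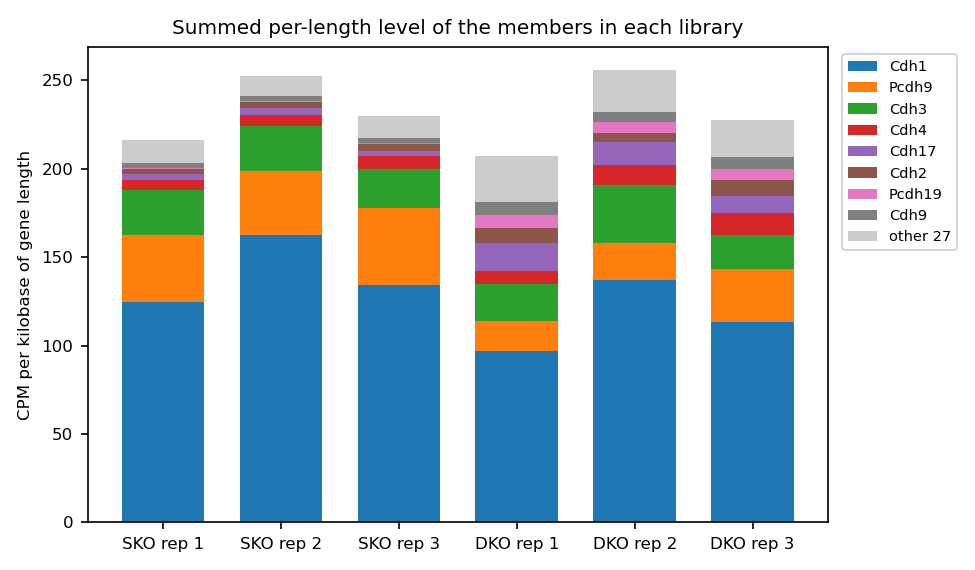
Summed level of the 35 members in CPM per kilobase of gene length in each library, stacked by gene for the 8 named and for the other 27 together. The bars reach 216 to 252 in SKO and 207 to 256 in DKO, with a smaller share of Cdh1 in DKO.

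Of 32 catenins, nectins and other adhesion partners, 30 were tested, 5 were called higher, 4 lower and 21 not called, with a median log2 fold change of 0.03. The 5 of 30 called higher are near the 17.3% of all tested genes, and 7.41% of all were called lower. Ctnnb1, beta-catenin, measured 439, 495 and 441 CPM in DKO and 352, 429 and 441 CPM in SKO and was not called (log2 fold change 0.17, adjusted p = 0.469). Ctnna1, alpha-catenin, which links the complex to actin, measured 75.4, 109 and 104 CPM in DKO and 159, 181 and 224 CPM in SKO and was called lower (log2 fold change -0.97, SE 0.20, adjusted p = 0.00616). Ctnna2, the neuronal alpha-catenin, was called higher, at 7.01 ± 0.565 CPM against 1.31 ± 0.338 (log2 fold change 2.41, SE 0.38, adjusted p = 0.00145). Neither p120-catenin (Ctnnd1, log2 fold change -0.44, adjusted p = 0.0951, and 0.0109 without DKO replicate 3) nor plakoglobin (Jup, -0.17, adjusted p = 0.718) was called. Plekha7, which ties p120-catenin to microtubule minus ends at the junction, had the largest change of the list, from 0.886, 0.875 and 1.11 CPM to 50.5, 42.8 and 43.0 CPM (log2 fold change 5.56, SE 0.27, adjusted p = 1.35e-06). Nectin2, an immunoglobulin adhesion protein of the same junctions, was called higher by 1.33 on the log2 scale (adjusted p = 0.0106), a call lost without SKO replicate 1 (0.051) or SKO replicate 3 (0.0515).

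Of 25 cadherin-domain genes outside the symbol rule (Fat, Dchs, Celsr, Cdhr and calsyntenin genes, Ret and desmosomal cadherins), 23 were in the table and 14 tested, of which edgeR called 8 higher and 0 lower. The count of lower genes was also 0 at an unadjusted p under 0.05 and by DESeq2. The edgeR shares over all tested genes were 17.3% called higher and 7.41% lower. Ret, Dsc3, Dsg2 and Dsg4 passed the filter on low counts only with DKO libraries, and of the other 10 genes 4 were called higher and 6 not called. Dsg4 lost its call in 6 of 11 alternatives. Clstn2, a synaptic calsyntenin, was at 36.0 ± 16.1 CPM in DKO against 0.903 ± 0.352 in SKO (log2 fold change 5.30, SE 0.43, adjusted p = 2.14e-05). Fat4, the receptor of the Fat and Dachsous polarity pair, stood at 6.07 ± 2.17 and 34.4 ± 13.2 CPM (2.5, SE 0.35, adjusted p = 0.000719). The receptor kinase gene Ret rose from 0.135 to 5.97 ± 1.34 CPM on 10 SKO counts (5.38, SE 0.77, and 6.93 without SKO replicate 1). Of 7 known repressors of Cdh1, 5 were tested and 2 called higher, of which Snai2 passed the filter only with DKO libraries, while Cdh1 itself was not called. Snai2 had 2.62 ± 1.96 CPM in DKO against 0.291 ± 0.135 in SKO (log2 fold change 3.14, SE 0.71, adjusted p = 0.00966, and 2.32 without DKO replicate 3). Zeb2 went from 6.01 ± 0.72 to 13.8 ± 6.28 CPM with overlapping libraries (1.20, SE 0.38, adjusted p = 0.0451), a call lost without DKO replicate 1 (0.13), DKO replicate 3 (0.109), SKO replicate 1 (0.136), SKO replicate 2 (0.113) or SKO replicate 3 (0.0971).

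**Figure D5:**
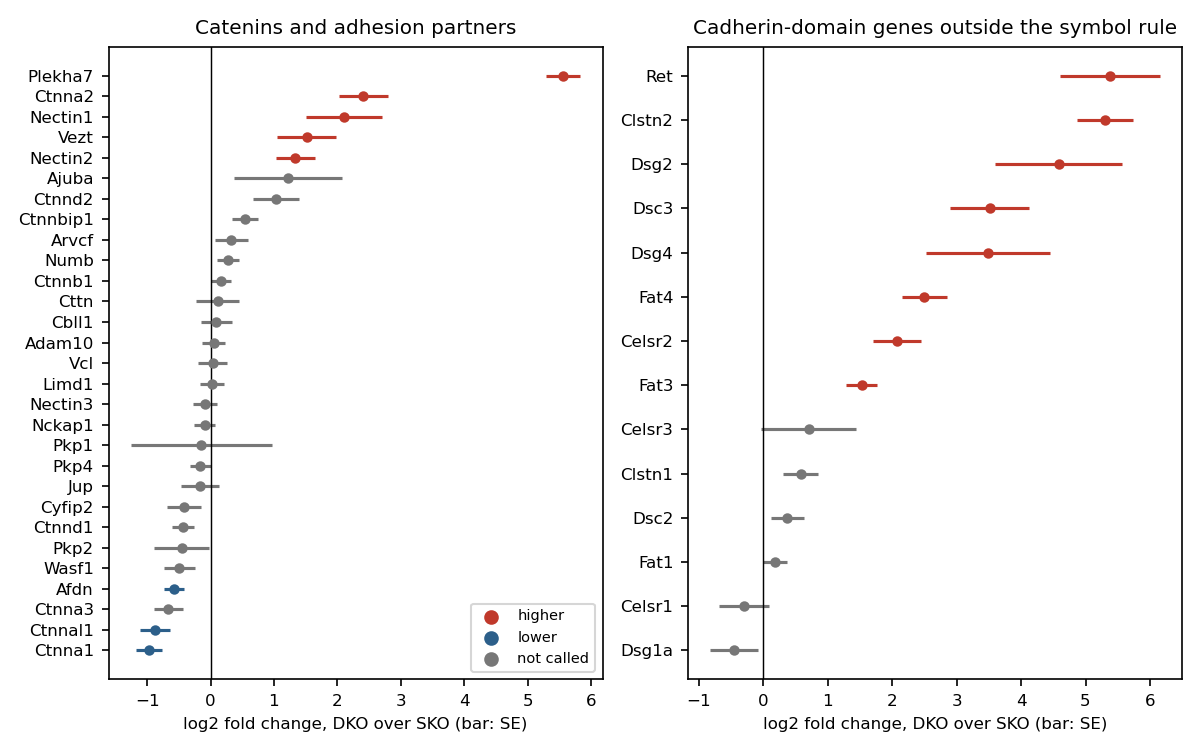
Log2 fold change, DKO over SKO, with its standard error for 29 of the 30 tested adhesion partners and the 14 tested cadherin-domain genes outside the symbol rule. Partners lie on both sides of 0, from -0.97 for Ctnna1 to 5.56 for Plekha7, while the 8 called cadherin-domain genes all lie above 0.

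Reads of overlapping genes touch few members. In the GENCODE M21 annotation of GRCm38, exons of 7 members share bases with another gene, and 4 of these other genes are in the count table. Beside the called members, Gm26851 shares 57 bases with Pcdh19 and had at most 8 counts in a library against 1309 or more for Pcdh19 in DKO, and Gm15679 shares 23 bases with Cdh8 and had at most 3. No source used here gives how the counting treated strand, so the antisense Gm9748 beside Pcdh8 (436 shared bases) and Gm49127 beside Cdh9 (224), which were not analysed here, cannot be told apart from them.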

How the data were processed

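RNA-seq of 6 libraries, 3 per genotype, was analysed from 1 table of counts by Entrez identifier, deposited by the authors without normalization, beside a column of gene lengths. Per the submitters' processing notes, which give no roles, GRCm38, mm10 and STAR 2.5.0a were used. No source used here gives the counter, its annotation or its use of strand. Per the labels' protocols RNA was amplified before library preparation, so reads are not independent molecules and intervals cover counting error only. Columns were matched by sample title, with 0 sample columns unused. Of 24421 identifiers, 24387 matched the RefSeq gene table of GRCm38.p6, which gave symbols and coordinates.

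Counts were tested in R 4.3.3 with edgeR 4.0.16: filterByExpr (minimum count 10, minimum total 15), TMM, and a quasi-likelihood F test (two-sided), its p-values adjusted by Benjamini and Hochberg across the 14845 genes tested. The standard error is the log2 fold change divided by the square root of F and can be too small for low counts. The code was tested on simulated data. Alternatives were library totals, DESeq2 size factors, the DESeq2 1.42.0 Wald test, no filter, a stricter filter (minimum count 30, total 45), a replicate block and leaving out each library. Exact 95% intervals of ratios are conditional binomial. CPM per kilobase divides CPM by the deposited length.

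Members and lists were chosen with earlier results of these data known. Named were all members, Rnf2, the core catenins, the called genes with the smallest adjusted p of each list (up to 4 partners, 3 of others) and the 3 most abundant tested genes of each marker list, of which some are not reported here.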

Additional observations from a re-analysis of the deposited data

How the results depend on the processing

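Of 273 recomputed log2 fold changes of members under 12 alternatives, 239 kept their side of the threshold, 22 lost a call, 12 gained one and 0 called changes reversed. The uncalled Cdh3, at 0.01, lay on either side of 0 (-0.27 to 0.18). Of the 14 members called higher, 10 kept the call wherever they were tested; Cdh2, Cdh7, Cdh13 and Cdh18 did not, nor did Pcdh9 and Cdh24. The cause was not tested.

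Members called lower numbered 1 with library totals alone and 0 to 1 with 1 library left out, and members called higher 12 to 15. Over all genes, 596 were lower with library totals alone, which moved the median of all log2 fold changes from 0.04 to 0.20 and the share of higher calls from 70% to 83.0%; with that scaling 16 members were called higher. Leaving out 1 library gave 434 to 1501 lower and 1952 to 2704 higher genes, the fewest lower without SKO replicate 3 (434), SKO replicate 2 (464) or SKO replicate 1 (516), and 2 to 4 partners higher and 2 to 6 lower. Without the filter 33 members were tested and 17 called higher, among them Pcdh12 (adjusted p = 0.00394), Cdh12 (0.0475) and Cdh6 (0.0488). The DESeq2 Wald test called 17 higher and 2 lower.

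The sample titles do not say what libraries with the same replicate number share. Deviations of same-numbered libraries from their group means correlated at 0.139, 0.0773 and 0.0479 (Pearson, across genes). Each library correlated best with its own number, and libraries with different numbers correlated at -0.084 to 0.0068. Whether same-numbered libraries share a batch was not tested. With a replicate block 16 members were called higher and 2 lower, among 2651 and 1364 genes. The main fit made no call for the 12 untested members, whose counts are below its filter at these depths, and 2 of them had no count in any library. Some passed the filter with 1 library left out. Pcdh12 was then called higher, for example without DKO replicate 3 (adjusted p = 0.00756, edgeR). Pcdh7 was called higher without DKO replicate 3 (0.0333) or SKO replicate 2 (0.0387), but not without SKO replicate 1 (0.161). Cdh12 was called higher without DKO replicate 2 (0.0379), but not without DKO replicate 1 (0.0735).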
